A study of Mus musculus with 8 samples.

Results

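The genes described here are 9 members of the proximal T cell receptor signalling pathway: the kinases Lck and Zap70, the adaptors Lat and Skap1, the scaffold protein Themis, the surface phosphatase Ptprc (CD45), the receptor-associated scavenger receptors Cd5 and Cd6 and the costimulatory receptor Cd28. They were chosen by name, as 9 of the 32285 genes in the count matrices, and not by their values. Their raw counts of unique molecular identifiers (UMIs, each marking 1 captured transcript) were summed in CD4-gated and CD8-gated T cells of 8 single-cell RNA-seq libraries. A T cell had at least 2 UMIs over the 6 genes Cd3d, Cd3e, Cd3g, Trac, Trbc1 and Trbc2. CD4-gated cells had at least 1 Cd4 UMI and 0 UMIs over Cd8a and Cd8b1, and CD8-gated cells had the reverse. None of the 9 genes entered these UMI gates, although the cells had been sorted on CD45, the protein of Ptprc.

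The libraries held pancreatic cells sorted as CD45+ CD3+ T cell receptor β+. The mice were of the NOD strain, which develops autoimmune diabetes spontaneously, and are labelled as diabetic females aged 3 to 5 months. A single control library came from active disease, with glucose over 600 mg/dl, and a single one from onset, at 250 mg/dl; both were harvested on day 1 and have no treatment named. The other 6 were 1 vehicle and 1 PPCA library on each of harvest days 2, 3 and 4, after daily treatment. PPCA joined nutlin-3 at 50 mg/kg, an inhibitor of the p53 antagonist MDM2, with MK-1775 at 25 mg/kg, an inhibitor of the cell cycle kinase WEE1. The vehicle was a mixture of ethanol, detergent and polyethylene glycol. The labels do not give the number of mice in a library, so p-values measure the spread between libraries.

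When a T cell receptor binds its ligand, LCK phosphorylates the CD3 and zeta chains, ZAP-70 docks on them, and ZAP-70 then phosphorylates LAT, the membrane platform on which signalling complexes assemble. CD45 removes the inhibitory phosphate from LCK, THEMIS tunes the signal together with the phosphatase SHP-1, SKAP1 couples the receptor to integrin adhesion, and CD28 supplies costimulation. CD5 and CD6 are related transmembrane proteins that are phosphorylated near the receptor, and CD5 restrains signalling and is known to track the strength of self-recognition.

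Upstream sequences of 3 members are shown because these genes gave the differences described below: Cd5 was lower in CD8-gated than in CD4-gated cells, Themis was higher, and Zap70 differed between cell states. Each line gives the 250 bases before an annotated start, read 5′ to 3′ on the gene's strand, from RefSeq (GRCm38.p6), with motif letters in capitals.
Cd5, chr19:10738975-10739224, minus strand: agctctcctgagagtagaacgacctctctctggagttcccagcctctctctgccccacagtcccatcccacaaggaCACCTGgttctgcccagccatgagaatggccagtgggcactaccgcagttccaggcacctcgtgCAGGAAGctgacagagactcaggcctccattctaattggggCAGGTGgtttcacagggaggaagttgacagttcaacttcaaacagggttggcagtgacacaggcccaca
Zap70, the first of its 3 starts, chr1:36761548-36761797, plus strand: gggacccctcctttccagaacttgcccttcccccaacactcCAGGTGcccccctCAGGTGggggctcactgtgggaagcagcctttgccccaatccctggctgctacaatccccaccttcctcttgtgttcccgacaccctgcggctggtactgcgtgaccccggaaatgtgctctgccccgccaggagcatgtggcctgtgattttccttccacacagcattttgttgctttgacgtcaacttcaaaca
Themis, the first of its 2 starts, chr10:28668110-28668359, plus strand: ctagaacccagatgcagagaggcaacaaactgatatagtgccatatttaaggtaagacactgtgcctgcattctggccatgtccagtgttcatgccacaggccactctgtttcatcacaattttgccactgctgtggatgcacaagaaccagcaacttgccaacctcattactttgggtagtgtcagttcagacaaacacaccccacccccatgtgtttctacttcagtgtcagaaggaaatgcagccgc
The letters searched on both strands were the RUNX motif TGTGGT, the ETS motif CAGGAAG, the forkhead motif GTAAACA, the NR4A motif AAAGGTCA and the E-box CACCTG. They occurred in 14.0%, 10.8%, 3.17%, 1.34% and 17.2% of 32851 upstream windows of 250 bases, respectively. The Cd5 window held 1 ETS match, 110 bases before the start, and 2 E-box matches, 174 and 69 bases before it. The window of the first Zap70 start held 2 E-box matches, 209 and 196 bases before it. That of the second start held a RUNX and an ETS match, 75 and 39 bases before it, and that of the third an NR4A and an E-box match, 243 and 184 bases before it. Neither Themis window held any of these letters. RefSeq windows were matched for 6 of the 9 members, and Cd6, Cd28 and Skap1 are named only.

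The matrices held 80470 barcodes and 419420275 UMIs, 36934580 to 67603740 UMIs per library. The gates kept 29328 CD4-gated cells (2737 to 5162 per library) and 24663 CD8-gated cells (1768 to 5058), and 22.9% to 35.6% of T cells fell in neither gate. Median UMIs per cell were 3900 to 6198 in CD4-gated and 4377 to 7287.5 in CD8-gated cells. Libraries shared 14 to 41 barcodes per pair over 28 pairs, at most 0.431% of the smaller library. The T cell markers Cd3d, Cd3e, Cd3g, Cd247, Trac and Trbc2 summed to 4776 to 6620 on the CPM scale. On that scale a gene's UMIs are divided by all UMIs of the summed cells and multiplied by 1000000. All of these markers but Cd247 belong to the T cell gate, so their presence follows from the gate. Cd247, outside the gate, was at 126 to 237 CPM. Of the B cell markers, Cd79a and Ms4a1 stayed at or below 1.23 CPM while Ighm reached 224 CPM. Cd79b was at 10.1 to 25.1 CPM in CD8-gated and 1.01 to 2.59 CPM in CD4-gated cells, higher in CD8-gated cells of every library, and its part in the differences between the gates was not tested. Among 5 myeloid markers, Lyz2, Csf1r and Adgre1 stayed at or below 1.24 CPM while Cst3 was at 110.4 to 153 CPM. The 4 gamma-delta or NK markers summed to 6.09 to 16.8 CPM, and 8 pancreas markers to 4.52 to 196 CPM, with Gcg at 0. Although all mice are labelled female, 4 libraries (Vehicle days 2 and 3, PPCA days 3 and 4) carried 188 to 276 CPM of 4 Y-linked transcripts and the other 4 carried 418 to 622 CPM of Xist. The comparisons of gates and of cell states over all 8 libraries were repeated within each kind, and PPCA was fitted with Y-linked transcripts as a further factor. Comparisons within resting or experienced cells alone were not split.

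Among the kinases, Lck read 483 CPM in the active and 475 CPM in the onset library in CD4-gated cells. Its vehicle libraries read 560.0, 462 and 394 CPM and its PPCA libraries 554, 493 and 328 CPM on days 2, 3 and 4. In CD8-gated cells Lck was 463 CPM (active), 478 CPM (onset), 536, 424 and 399.8 CPM (vehicle) and 568, 473 and 332 CPM (PPCA). Both gates therefore gave nearly the same Lck level in each library, and both day 4 libraries lay below the other 6. Zap70 read 96.2 CPM (active), 92.3 CPM (onset), 104, 91.7 and 77.2 CPM (vehicle) and 101, 95.4 and 80.1 CPM (PPCA) in CD4-gated cells. In CD8-gated cells it read 99.2 CPM (active), 96.2 CPM (onset), 107, 88.3 and 74.9 CPM (vehicle) and 99.2, 86.8 and 68.6 CPM (PPCA). Zap70 too was lowest in the day 4 libraries of both arms.

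For the adaptors, Lat was 337 CPM (active), 417 CPM (onset), 419, 355 and 453 CPM (vehicle) and 443, 425 and 491 CPM (PPCA) in CD4-gated cells. CD8-gated cells gave Lat levels of 297 CPM (active), 375 CPM (onset), 388, 325 and 395 CPM (vehicle) and 402, 373 and 426 CPM (PPCA). The active library was the lowest in both gates. Themis read 147 CPM (active), 183 CPM (onset), 146, 131 and 104 CPM (vehicle) and 158, 139 and 80.9 CPM (PPCA) in CD4-gated cells. In CD8-gated cells Themis was at 179 CPM (active), 231 CPM (onset), 169, 153 and 121 CPM (vehicle) and 213, 169 and 101 CPM (PPCA). Its highest value was in the onset library and its lowest in the day 4 PPCA library in both gates. Skap1 had the smallest ratio of highest to lowest library among the 9 genes, with levels from 396 to 480.4 CPM in CD4-gated and 341 to 435 CPM in CD8-gated cells.

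At the cell surface, Cd5 was 220.0 CPM (active), 214 CPM (onset), 271, 215 and 182 CPM (vehicle) and 267, 254 and 183 CPM (PPCA) in CD4-gated cells. CD8-gated cells held 148 CPM of Cd5 (active), 161 CPM (onset), 182, 143 and 122 CPM (vehicle) and 193, 142 and 111 CPM (PPCA). Within every library the CD4-gated level of Cd5 was above the CD8-gated level. Cd28 was 212 CPM (active), 258 CPM (onset), 209, 182 and 303 CPM (vehicle) and 219, 186 and 346 CPM (PPCA) in CD4-gated cells. The CD8-gated levels of Cd28 were 110.2 CPM (active), 158 CPM (onset), 125, 89.1 and 199 CPM (vehicle) and 123, 90.9 and 225 CPM (PPCA). Opposite to Lck, Zap70 and Cd5, Cd28 was highest in the day 4 libraries of both arms. Cd6 ranged from 124 to 189 CPM in CD4-gated and 135 to 176 CPM in CD8-gated cells, and Ptprc from 849 to 1479 CPM and 853 to 1574 CPM.

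**Figure D1:**
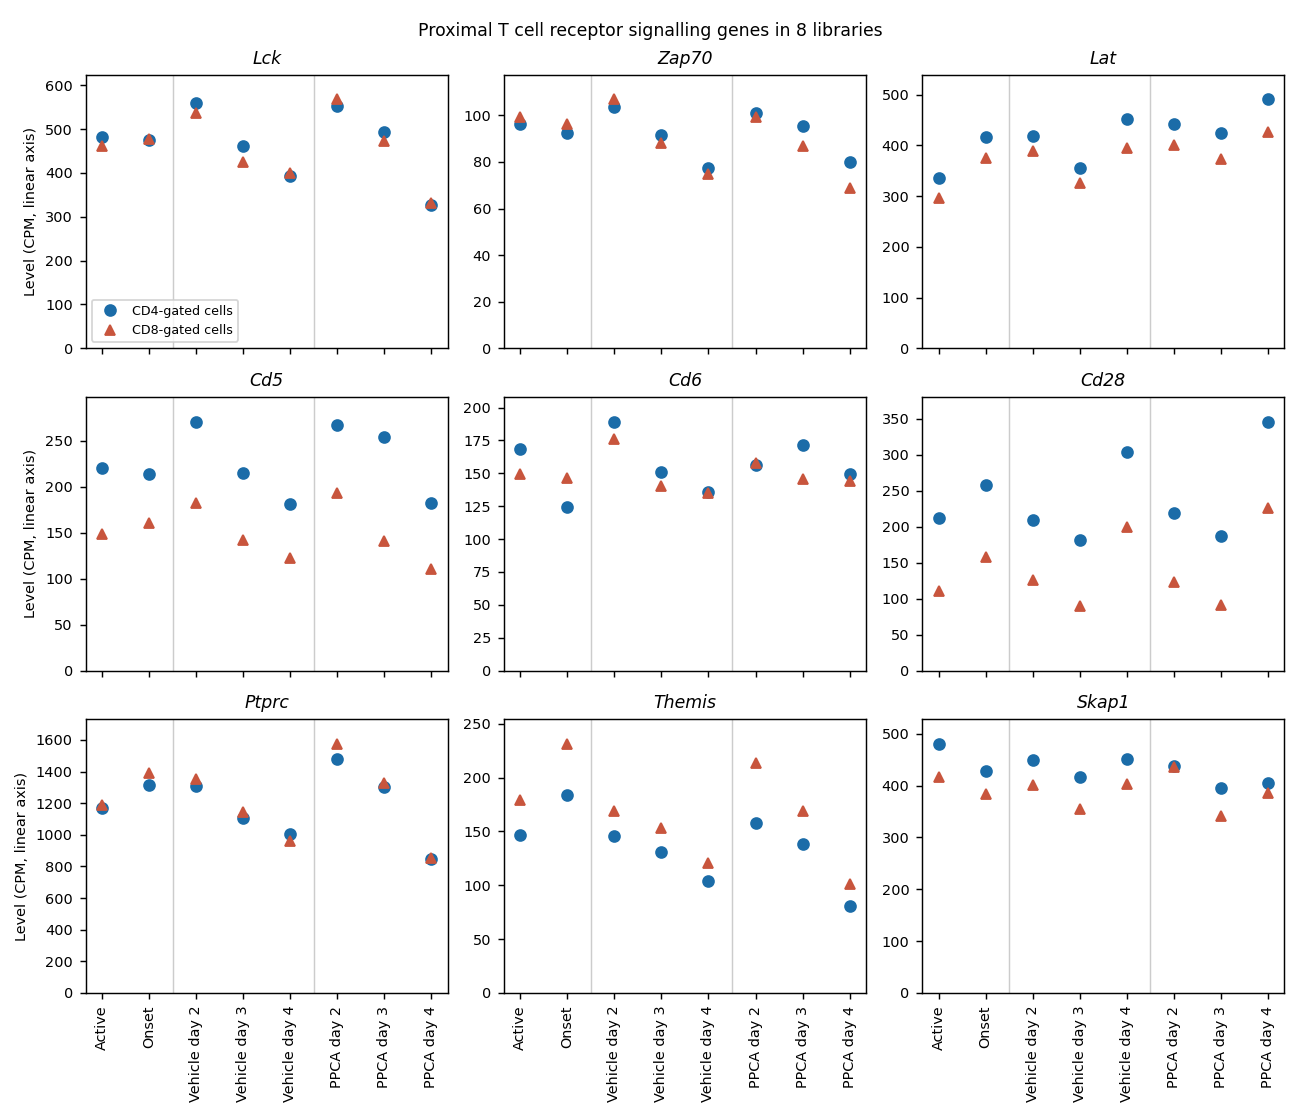
Levels of the 9 genes (CPM, linear axis from 0) in each of the 8 libraries, with circles for CD4-gated and triangles for CD8-gated cells and 1 point per library. The Cd5 and Cd28 circles lie above the triangles in all 8 libraries, the Themis triangles above the circles, and the day 4 libraries are lowest for Lck, Ptprc and Themis.

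The day 4 libraries of both arms lay outside the range of the other 6 for most members. The share of all genes that did the same was not counted, so this is not a trait of the members. In CD4-gated cells Lck was 328 to 394 CPM on day 4 against 462 to 560.0 CPM elsewhere, and Ptprc 849 to 1007 CPM against 1106 to 1479 CPM. Themis was 80.9 to 104 CPM against 131 to 183 CPM, and Cd28 303 to 346 CPM against 182 to 258 CPM. The CD8-gated sums placed the day 4 libraries on the same side of the others for these 4 genes and for Zap70 and Cd5. The summed level of the early response genes Nr4a1, Egr1 and Egr2 also stood apart on day 4, at 334 to 367 CPM against 109.8 to 184 CPM in CD4-gated and 256 to 294 CPM against 70.8 to 145 CPM in CD8-gated cells. Its part in the member levels was not tested, and the groups were not planned, so no test is given.

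CD8-gated cells carried less Cd28 and Cd5 and more Themis than CD4-gated cells of the same libraries. Cd28 had a median of 124 CPM (89.1 to 225) in CD8-gated against 216 CPM (182 to 346) in CD4-gated cells, lower in 8 of 8 libraries, with a log2 difference of -0.77 (SE 0.045, adjusted p = 2.13e-09, edgeR quasi-likelihood test with Benjamini-Hochberg adjustment). Cd5 had medians of 145 and 218 CPM, again lower in 8 of 8 libraries, with a log2 difference of -0.55 (SE 0.034, edgeR adjusted p = 3.3e-09). Themis had medians of 169 and 142 CPM, higher in 8 of 8 libraries, with a log2 difference of 0.33 (SE 0.024, edgeR adjusted p = 2.92e-08). The ranges of the gates overlapped for all 3 genes, so the differences show within libraries. They kept their sign and passed the threshold in the 4 libraries with and in the 4 without Y-linked transcripts.

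The other differences between the gates were small. Lat was lower in CD8-gated cells by a log2 difference of -0.12 (edgeR adjusted p = 0.000185) and Skap1 by -0.11 (edgeR adjusted p = 0.0022), each in 8 of 8 libraries. Ptprc was higher by 0.07 (edgeR adjusted p = 0.00866) in 7 of 8 libraries. The Ptprc call ended without the Vehicle day 2 library (adjusted p = 0.059), without TMM scaling (0.2), in the libraries without Y-linked transcripts (0.27), with a gate of at least 2 coreceptor UMIs (0.11) and in cells thinned to 2000 UMIs (0.15). Lck (0.01), Zap70 (0.00) and Cd6 (-0.01) did not pass the threshold. In all 6 of 9 members passed, 2 higher and 4 lower in CD8-gated cells, where 46.4% of 11729 genes tested passed (23.4% higher, 23% lower; 3260 genes after thinning to 2000 UMIs, against 5437 before). The median log2 difference was -0.01 over the members and 0.00 over all genes tested. Total-count scaling moved all genes by -0.04 and lowered the share of higher genes among those called from 50.5% to 37.0%.

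Of 51 other genes of the pathway, listed by name, 12 were higher and 25 lower in CD8-gated cells and 14 did not pass. The largest falls were in Trat1, an adaptor that stabilises the receptor at the surface (log2 difference -1.76), the phosphatase Ubash3b (-0.71), the inhibitory receptor Ctla4 (-0.58) and the adaptor Nck2 (-0.53). Highest were the costimulatory receptor Cd226 (1.51), the phosphatase Ptpn22 (0.90), the inhibitory adaptor Lax1 (0.70) and the adaptor Sla2 (0.42). By group, 5 of 10 kinases and their regulators passed (3 higher, 2 lower), 14 of 19 adaptors and effectors (5 and 9), 7 of 9 downstream entry points (2 and 5), 4 of 6 ubiquitin ligases and brakes (1 and 3) and 7 of 7 receptor chain and costimulation genes (1 and 6), beside 46.4% of all genes tested. Ctla4 did not pass in the libraries without Y-linked transcripts (-0.21, edgeR adjusted p = 0.51).

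Shares of cells with a UMI, after thinning each cell to 2000 UMIs and leaving out 324 CD4-gated and 317 CD8-gated cells of lower depth, differed between the gates for 5 members. Only the 9 members were tested in this way, so no share of all genes stands beside that count. Cd28 was detected in 35.9% ± 6.99 (SD, n = 8 libraries) of CD4-gated and 22.8% ± 6.71 of CD8-gated cells, a mean difference of -13.1 percentage points. Cd5 was detected in 31.8% ± 3.74 and 24.0% ± 3.66, a difference of -7.76 points, and Themis in 22.8% ± 4.86 and 27.1% ± 6.15, a difference of 4.29 points. Lat (-3.71 points) and Skap1 (-3.23 points) were also detected in fewer CD8-gated cells. Each of these 5 had its sign in 8 of 8 libraries and p = 0.0078 in an exact two-sided sign-flip test, the smallest that 8 libraries can give (0.0141 adjusted over the 9 genes). Lck, Zap70, Cd6 and Ptprc did not pass, and at 1000 UMIs Ptprc passed as higher in CD8-gated cells (1.33 points, adjusted exact p = 0.0469). Without thinning, where CD8-gated cells were the deeper ones, the Cd28, Cd5 and Themis differences kept their signs and passed. Lck (2.57 points), Zap70 (3.27), Cd6 (4.05) and Ptprc (0.55) then also passed as higher in CD8-gated cells, with adjusted p of 0.0141, 0.0201, 0.0201 and 0.0141 in the exact sign-flip test. Lat (-0.39 points, adjusted exact p = 0.508) and Skap1 (0.54 points, adjusted exact p = 0.422) did not pass without thinning. In 33 barcodes with B cell or myeloid UMIs and none of the 6 T cell genes, 0 or 1 cell held a UMI of each member other than Ptprc, where a count of 0 allows up to 9.09%, and 24 held Ptprc, which all leukocytes express. Without thinning, Lat was in 7 of 37 such barcodes (18.9%), Skap1 in 3, Lck in 2, Ptprc in 33 and each other member in 0 or 1.

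The difference between the gates was also read within ranges of cell state, an alternative chosen after seeing the data. Resting cells had at least 2 UMIs over a set of genes that includes Ccr7 and Lef1 and 0 over Ccl5, Nkg7, S100a4, Cxcr6, Cxcr3 and Cd44, experienced cells had the reverse, and 23.8% to 39.6% of CD4-gated and 68.8% to 87.6% of CD8-gated cells fell in neither range. These are ranges of UMI scores and not cell types, and the score genes were left out of the tests. In resting cells, 6 members passed where 12.3% of 10038 genes did (6.03% higher, 6.3% lower): Cd5 (-0.47), Cd28 (-0.42), Cd6 (-0.21), Lat (-0.11) and Skap1 (-0.10) were lower and Themis (0.23) higher in CD8-gated cells. In experienced cells, 6 members passed where 18.7% of 6963 genes did (9.18% higher, 9.49% lower): Cd28 (-0.96), Cd5 (-0.95) and Zap70 (-0.49) were lower and Themis (0.74), Skap1 (0.20) and Ptprc (0.20) higher. Experienced CD4-gated cells held 337 to 483 CPM of Cd5 and experienced CD8-gated cells 138 to 289 CPM, ranges that did not overlap. The Skap1 value in experienced cells did not pass with total-count scaling (0.17). Of the 51 pathway genes 7 were higher and 16 lower in resting CD8-gated cells, led by Cd226 (1.3), Ptpn22 (0.50), Sos1 (0.44), a Ras activator, and Sla2 (0.33) and by Ubash3b (-0.90), Trat1 (-0.85), Dok2 (-0.44) and Sit1 (-0.29). In experienced cells 9 were higher and 14 lower, among them Grap2 (0.83), Sla2 (0.64) and Sh2d2a (0.54), and Icos (-1.85), Ctla4 (-1.36), Nck2 (-1.01) and Sla (-0.91).

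**Figure D2:**
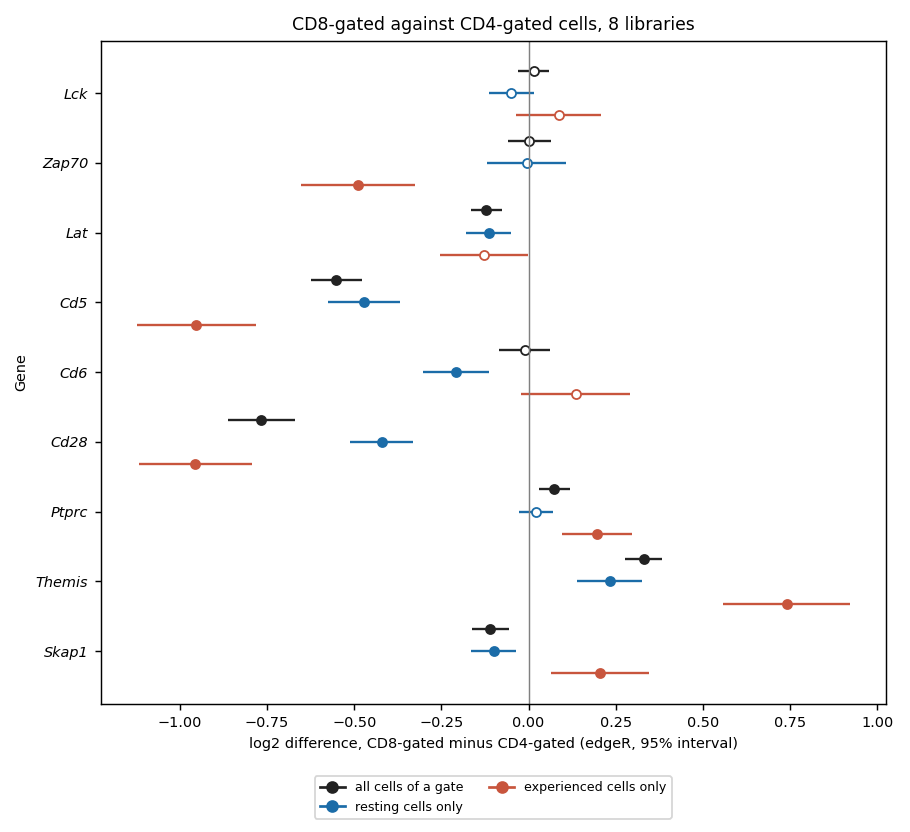
Log2 differences between CD8-gated and CD4-gated cells for the 9 genes with 95% intervals from the edgeR fit over 8 libraries, for all cells, resting cells and experienced cells, with filled points for adjusted p under 0.05. Cd28 and Cd5 lie left of 0 and Themis right of 0 in all 3 sets, and Zap70 leaves 0 in experienced cells, at -0.49.

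Within CD4-gated cells, those with at least 1 UMI of Foxp3, the transcription factor of regulatory T cells, carried more Cd5, Cd6, Zap70 and Cd28 and less Themis. There were 1230 such cells (104 to 223 per library) and 28098 without a Foxp3 UMI, and cells without a UMI can still express the gene. Themis had a median of 59.9 CPM (36.9 to 105) in Foxp3-positive and 146 CPM (82.8 to 186) in the other cells, lower in 8 of 8 libraries, with a log2 difference of -1.28 (SE 0.074, edgeR adjusted p = 5.69e-17). Cd5 had medians of 349 CPM (290.3 to 429) and 213 CPM (178 to 264), ranges that did not overlap, with a log2 difference of 0.47 (SE 0.049, edgeR adjusted p = 3.26e-10). Cd6 had medians of 229 and 149 CPM and a log2 difference of 0.46 (SE 0.053, edgeR adjusted p = 4.82e-09), and its ranges did not overlap either. Zap70 (0.30, edgeR adjusted p = 9.76e-05) and Cd28 (0.25, edgeR adjusted p = 0.000186) were higher in 8 of 8 libraries. Lat (-0.30) and Skap1 (-0.14) were lower, while Lck (0.00) and Ptprc (0.04) did not pass.

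In all, 7 of 9 members passed, where 30.3% of 10580 genes did (15.2% higher, 15.1% lower), and the number of genes called fell from 3208 to 1246 after thinning to 2000 UMIs. Total-count scaling moved all genes by 0.19 and the share of higher genes among those called from 50.2% to 83.2%. Under that scaling Lck (0.19) and Ptprc (0.23) passed as higher, Lat (-0.11, edgeR adjusted p = 0.089) no longer passed, and Skap1 turned to 0.06, so the direction of Skap1 and the calls for Lck, Ptprc and Lat depend on the scaling. With cells thinned to 2000 UMIs Zap70 (0.22, edgeR adjusted p = 0.39) and Skap1 (-0.07, 0.7) did not pass, and the Skap1 call also ended without the active library (-0.10, edgeR adjusted p = 0.081). In the libraries with Y-linked transcripts Zap70 (0.23, edgeR adjusted p = 0.062) and Skap1 (-0.06, 0.58) did not pass, and in those without, where 1985 genes passed in all, Cd28 did not (0.16, 0.14). Of the 51 pathway genes, 20 were higher and 11 lower in Foxp3-positive cells. Ctla4 (3.32) and Icos (2.01), receptors known from regulatory T cells, the LCK activator Unc119 (1.66) and the adaptor Sla (0.96) rose most. The kinase Txk (-0.91) and the adaptors Grap2 (-0.68) and Trat1 (-0.61) were among those that fell most.

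Resting CD4-gated cells (19059) carried less Zap70, Cd28, Cd6 and Cd5 than experienced CD4-gated cells (876, 46 to 234 per library). Zap70 had a median of 87.6 CPM (69.7 to 92.5) in resting and 164 CPM (138 to 235) in experienced cells, ranges that did not overlap, with a log2 difference of -0.74 (SE 0.079, edgeR adjusted p = 1.28e-10). Cd28 had medians of 195 and 409 CPM (-0.71, edgeR adjusted p = 2.45e-12), Cd6 of 139 and 275 CPM (-0.68, edgeR adjusted p = 4.36e-11) and Cd5 of 207 and 379 CPM (-0.65, edgeR adjusted p = 5.08e-12), each lower in 8 of 8 libraries without overlap. Lat was lower (-0.20) and Skap1 higher (0.37, SE 0.063) in resting cells. The last of these rests on the scaling: Skap1 was at 0.09 with total-count scaling (edgeR adjusted p = 0.26). Lck (-0.03), Ptprc (-0.02) and Themis (0.13) did not pass. Lat did not pass without a low-count filter (-0.13, edgeR adjusted p = 0.09). In the libraries without Y-linked transcripts Lat did not pass (-0.15, edgeR adjusted p = 0.28) and Themis did (0.38, 0.0153), while Themis was at -0.10 in those with them (0.59). A total of 6 of 9 members passed, where 33.3% of 9896 genes did (17.4% higher, 15.9% lower). Thinning to 2000 UMIs took the genes called from 3294 to 1764.

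Resting CD8-gated cells (2568) differed most from experienced ones (2757) in Cd6, with a median of 121 CPM (92.3 to 161) against 295 CPM (246 to 319) and no overlap, a log2 difference of -1.06 (SE 0.076, edgeR adjusted p = 9.42e-14). Themis was lower in 8 of 8 libraries (medians of 156 and 238 CPM, log2 difference -0.41, edgeR adjusted p = 9.04e-06). Zap70 (-0.29), Ptprc (-0.24), Lat (-0.22), Lck (-0.20) and Cd5 (-0.19) were lower by less. The Cd5 call ended with DESeq2 (adjusted p = 0.18) and without the PPCA day 2 (0.2), PPCA day 4 (0.15) or Vehicle day 4 library (0.053). Cd28 (-0.19, edgeR adjusted p = 0.0577) did not pass here and passed without the PPCA day 2 (-0.27), Vehicle day 4 (-0.24) or onset library (-0.22), after thinning (-0.44), without a low-count filter (-0.20) and with total-count scaling (-0.41). Cd28 also passed in the libraries with Y-linked transcripts (-0.50, edgeR adjusted p = 4.3e-05) and was at 0.08 in those without (0.55). Cd5 did not pass in the former (-0.12, edgeR adjusted p = 0.43), and Lck (-0.16, 0.09) and Zap70 (-0.27, 0.061) did not pass in the latter. A total of 7 of 9 members passed, where 45.1% of 7772 genes did (22.7% higher, 22.4% lower).

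Total-count scaling moved all genes by -0.27 in the CD4-gated and -0.22 in the CD8-gated comparison, and took the share of higher genes among those called from 52.3% to 18.1% and from 50.4% to 22.7%. The members lower in resting cells were lower under both scalings, and Lck (-0.31) and Ptprc (-0.30) passed as lower in CD4-gated cells with total-count scaling only. In CD8-gated cells Skap1, at 0.02 without passing, was at -0.19 with total-count scaling and passed as lower (edgeR adjusted p = 0.0026), so that 9 of 9 members passed under that scaling. Of the 7772 genes tested there, 4244 passed with total-count scaling, 964 as higher and 3280 as lower. Themis was at 0.13 in CD4-gated cells without passing and at -0.14 with total-count scaling. Experienced cells were shallower, with median UMIs of 3292.5 to 4831 against 3983 to 6155 in CD4-gated cells.

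Of the 51 pathway genes, 14 were higher and 18 lower in resting CD4-gated cells, and 15 higher and 22 lower in resting CD8-gated cells. Beside these, 33.3% of 9896 genes passed in CD4-gated cells (17.4% higher, 15.9% lower) and 45.1% of 7772 in CD8-gated cells (22.7% higher, 22.4% lower). Ctla4 (-3.88 in CD4-gated, -2.29 in CD8-gated cells) and Unc119 (-2.20 and -2.18) were among the lowest in both gates, and Txk (2.03 and 1.73) and Cd2ap, a CD2-binding scaffold (1.26 and 1.67), among the highest. Icos (-3.30) and Sla (-1.49) were also among the lowest in CD4-gated cells, and Trat1 (0.99) and Grap2 (0.96) among the highest. In CD8-gated cells Lax1 (-1.85) and Dok2 (-1.46), both inhibitory adaptors, were low in resting cells, and Dgka (1.54), a kinase that removes diacylglycerol, and the phosphatase Ptpn6 (0.88) were high.

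The effect of the resting state differed between the gates for 7 members in 1 fit over both gates, an added test, where 10.7% of 8467 genes passed (5.79% higher, 4.94% lower). For Cd28 the log2 effect was higher by 0.53 in CD8-gated cells (SE 0.115, edgeR adjusted p = 0.00112), for Cd5 by 0.47 (adjusted p = 0.000737) and for Zap70 by 0.46 (0.00242). The effect was lower in CD8-gated cells for Themis (-0.53, edgeR adjusted p = 0.0014), Cd6 (-0.37, 0.0189), Skap1 (-0.33, 0.00443) and Ptprc (-0.20, 0.0325). None of the 7 passed once cells were thinned to 2000 UMIs, although each kept its sign, with Zap70 then at 0.22, Cd28 at 0.25 and Themis at -0.34, and the genes called went from 908 to 489. Each also kept its sign in both kinds of library, where Cd5 alone passed in those with Y-linked transcripts (424 genes in all) and Cd28, Cd6 and Themis in those without (410 genes in all). Cd6 was at -0.11 in the former and -0.63 in the latter. Of the 51 pathway genes 11 passed with a higher and 7 with a lower effect in CD8-gated cells, led by Icos (2.14), Ctla4 (1.58), Nck2 (0.80) and Sla (0.80) and, among the lower, Sh2d2a (-0.72), Grap2 (-0.66) and Dok2 (-0.53). The calls for Nck2 and Dok2 ended after thinning (0.59 and -0.02, edgeR adjusted p = 0.56 and 0.98) and in both kinds of library. Nck2 was also lost without any library other than Vehicle day 4 (edgeR adjusted p = 0.057 to 0.14), and Dok2 without Onset, PPCA day 2, Vehicle day 3, PPCA day 3 or PPCA day 4 (0.055 to 0.14). The calls for Cd6 and Ptprc also ended with total-count scaling (edgeR adjusted p = 0.061 and 0.16). Those 2 calls were further lost when single libraries were left out, Cd6 without Active (0.065), Onset (0.08), PPCA day 2 (0.071) or Vehicle day 4 (0.056), and Ptprc without any library other than Vehicle day 2 (0.051 to 0.097).

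Cells with at least 2 UMIs over Nr4a1, Egr1 and Egr2, genes induced by receptor signals and also by tissue handling, carried more Cd5 and Cd6 than cells with 0. In CD4-gated cells (6057 against 17334) Cd5 had medians of 313 CPM (195 to 408) and 201 CPM (161 to 248), higher in 8 of 8 libraries, with a log2 difference of 0.48 (SE 0.046, edgeR adjusted p = 2.56e-06). Cd6 had medians of 196 and 146 CPM and a log2 difference of 0.37 (SE 0.046, edgeR adjusted p = 6.41e-05), and Zap70 of 114 and 89.1 CPM and 0.28 (SE 0.045, edgeR adjusted p = 0.000467). Ptprc (0.12) was higher and Themis (-0.21) and Skap1 (-0.10) were lower, while Lck (0.03), Lat (-0.05) and Cd28 (0.08) did not pass. In all, 6 of 9 members passed, where 5.9% of 10417 genes did (3.49% higher, 2.41% lower). The 615 genes behind that share fell to 344 without the onset library, 382 without the active library and 209 after thinning to 2000 UMIs. In the libraries with Y-linked transcripts 58 genes and 2 members, Cd5 and Cd6, passed, and in those without 376 genes and 6 members.

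In CD8-gated cells (4371 against 15396) 3 of 9 members passed, all higher, where 3.23% of 10399 genes did (2.13% higher, 1.11% lower). Cd5 had medians of 189.8 and 135 CPM (log2 difference 0.33, SE 0.038, edgeR adjusted p = 1.09e-06), Cd28 of 134 and 122 CPM (0.20, edgeR adjusted p = 0.00222) and Cd6 of 166 and 142 CPM (0.16, edgeR adjusted p = 0.0358). The 336 genes called became 152 after thinning, 221 with DESeq2 and 549 without a low-count filter. Themis (-0.13, edgeR adjusted p = 0.043) passed as lower in CD8-gated cells only without that filter. In the libraries with Y-linked transcripts 105 genes and the 3 members passed, and in those without 233 genes and, of the members, Cd5 alone. In the added edgeR test of whether this effect differs between the gates, no member and 0 of 10947 genes passed (0%), and 546 genes had an unadjusted p under 0.05. Cells with early response UMIs were deeper, with median UMIs of 4215 to 6657 against 3666 to 6138 in CD4-gated cells and 4862.5 to 8025 against 4146.5 to 7187 in CD8-gated cells. After thinning to 2000 UMIs, 3 of the 6 members still passed in CD4-gated cells, Cd5, Cd6 and Ptprc, and Cd5 alone in CD8-gated cells, where Cd6 (0.25, edgeR adjusted p = 0.13) and Cd28 (0.27, 0.08) had larger differences than before thinning without passing. The Cd6 call in CD8-gated cells and the Skap1 call in CD4-gated cells also ended when 1 of several libraries was left out, with edgeR adjusted p of up to 0.15 and 0.16, and with DESeq2 (adjusted p = 0.067 and 0.053). Skap1 was lost, too, with DESeq2 size factors (edgeR adjusted p = 0.052) and with total-count scaling, under which Cd28 passed in CD4-gated cells (0.12, edgeR adjusted p = 0.034). That scaling moved all genes by 0.03 and the share of higher genes among those called from 59.2% to 81.1% in CD4-gated and from 65.8% to 88.5% in CD8-gated cells.

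Of the 51 pathway genes, 10 were higher and 4 lower in CD4-gated cells with early response UMIs, and 7 higher and 2 lower in CD8-gated cells. Beside these, 5.9% of 10417 genes passed in CD4-gated cells (3.49% higher, 2.41% lower) and 3.23% of 10399 in CD8-gated cells (2.13% higher, 1.11% lower). The adaptors Sh2d2a (0.45 in CD4-gated, 0.21 in CD8-gated cells) and Sla (0.35 and 0.28) and the receptor Icos (0.41 and 0.36) were higher in both gates. The adaptors Grap2 (-0.18 and -0.14) and Rhoh (-0.15 and -0.13) were lower in both, although Rhoh in CD8-gated cells was at 0.0051 after thinning to 2000 UMIs. Lax1 (0.32) was high and Txk (-0.18) and Sit1 (-0.16) low in CD4-gated cells, and Ctla4 (0.29) was high in CD8-gated cells. After thinning, the calls for Sh2d2a, Sla and Grap2 in CD4-gated cells and for Ctla4 in CD8-gated cells held, and those for the other named genes ended. Only Sh2d2a in CD4-gated cells passed both in the libraries with and in those without Y-linked transcripts. With 1 library left out, the Ctla4 call in CD8-gated cells ended for any of 6 libraries, all but Active and Vehicle day 4 (edgeR adjusted p = 0.054 to 0.12), and it ended with DESeq2 (0.064). In CD4-gated cells Icos was lost without any library other than PPCA day 4 (0.052 to 0.15) and with DESeq2 (0.1), Lax1 without Active, Onset, Vehicle day 2 or PPCA day 2 (0.051 to 0.094), Sit1 without Active, Onset or Vehicle day 4 (0.063 to 0.084), and Grap2 (0.068) and Rhoh (0.058) without Onset. In CD8-gated cells Icos was lost without Active (0.064) and Grap2 without Onset, PPCA day 2, PPCA day 3, Vehicle day 4 or PPCA day 4 (0.066 to 0.13).

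**Figure D3:**
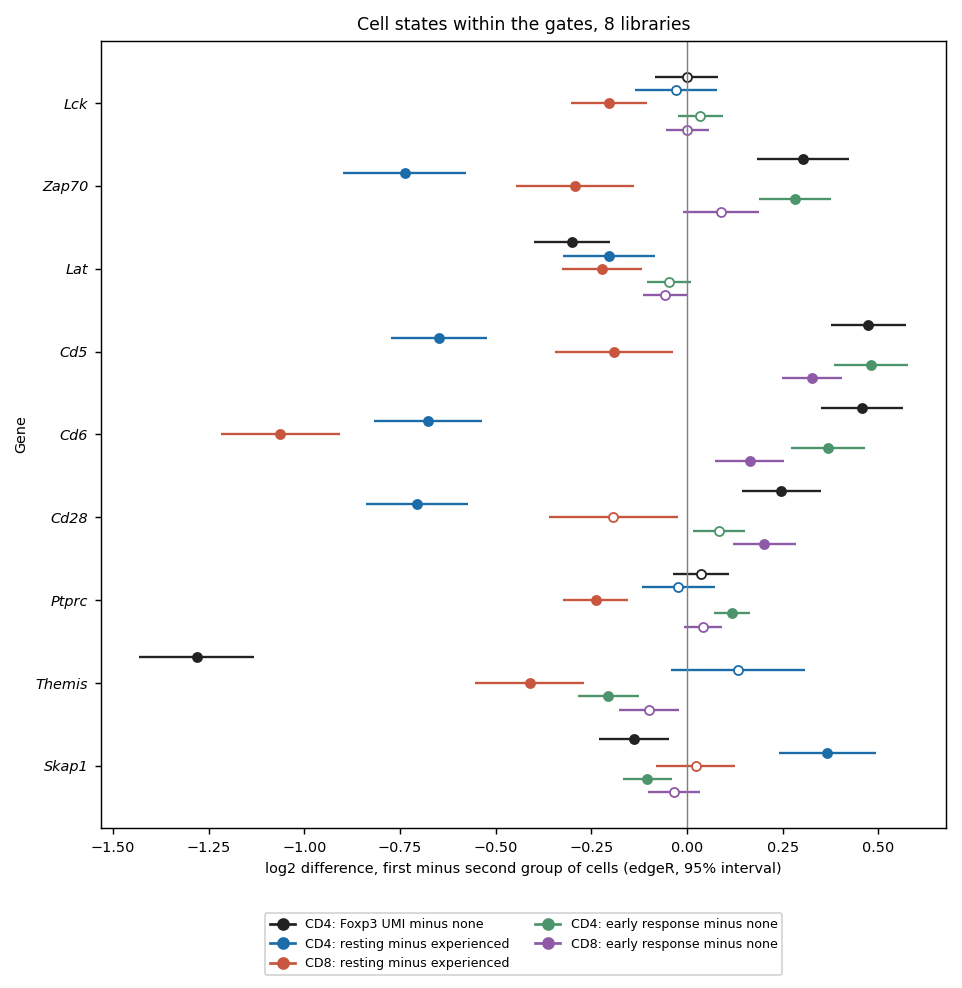
Log2 differences of the 9 genes between cell states within a gate, with 95% intervals from edgeR fits over 8 libraries and filled points for adjusted p under 0.05. Cd5 and Cd6 lie right of 0 in Foxp3-positive and early response cells and left of 0 in resting cells, and Themis reaches -1.28 in Foxp3-positive cells.

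PPCA against vehicle, the comparison of the treatment scheme, changed none of the 9 genes past the threshold in either gate. In CD4-gated cells the log2 fold changes, with harvest day as a factor, ran from -0.17 for Skap1 (95% interval -0.39 to 0.04) to 0.07 for Lat (-0.13 to 0.27). In CD8-gated cells they ran from -0.17 for Zap70 (-0.36 to 0.01) to 0.03 for Lat (-0.17 to 0.23). The widest intervals were those of Themis, from -0.41 to 0.14 and from -0.29 to 0.26. Of all genes, 0% of 11691 passed in CD4-gated and 0% of 11771 in CD8-gated cells by the edgeR quasi-likelihood test, and 803 and 954 had an unadjusted p under 0.05. Those counts of 0 rose to 75 and 277 genes without the day 4 pair and to 136 and 117 without a low-count filter, with 0 members in each, and were 3 and 7 after thinning to 2000 UMIs. The tools DESeq2 and limma-voom called 28 and 41 genes and 0 and 2 genes, none of them a member. With Y-linked transcripts as a further factor 78 and 69 genes passed, again none a member. That fit and the fits without a day pair left fewer residual degrees of freedom than the 2 of the main fit. The 51 pathway genes gave 0 calls in each gate, and 5 in each had an unadjusted p under 0.05.

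The days did not move the members in the same way. The pairs also differed in Y-linked transcripts: on day 2 only the vehicle library carried them, on day 4 only the PPCA library, and on day 3 both did. Day and this mismatch cannot be told apart in the ratios below. Lck on day 4 was 328 CPM under PPCA and 394 CPM under vehicle in CD4-gated cells, a log2 ratio of -0.26, against 0.10 on day 3 and -0.02 on day 2. Themis gave -0.36 on day 4 against 0.08 on day 3 and 0.12 on day 2, and Ptprc -0.25 against 0.24 and 0.18. For Lat alone the ratio was above 0 on all 3 days in both gates, from 0.08 to 0.26 in CD4-gated and 0.05 to 0.20 in CD8-gated cells. In a single gate, Cd28 was above 0 on all 3 days in CD4-gated cells (0.04 to 0.19). Skap1 in CD4-gated cells (-0.15 to -0.04) and Zap70 in CD8-gated cells (-0.13 to -0.02) were below 0 on all 3 days. Total-count scaling raised all genes by 0.08 and 0.09 relative to TMM scaling. Ratios of CPM and fitted values are therefore on different scalings, and the sign of the fitted value depends on the scaling for Zap70, Cd5, Cd6 and Ptprc in CD4-gated and for Cd6, Cd28, Ptprc, Themis and Skap1 in CD8-gated cells. No member passed the edgeR test of whether the treatment effect differs between the gates, which 0.00811% of 12326 genes passed (1 gene, BC018473, named after its value was seen). Pancreas markers summed to 29.9 to 86.5 CPM under vehicle and 53.0 to 196 CPM under PPCA in CD4-gated cells, and to 11.4 to 92.0 CPM and 32.8 to 57.1 CPM in CD8-gated cells, and their part in these values was not tested.

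**Figure D4:**
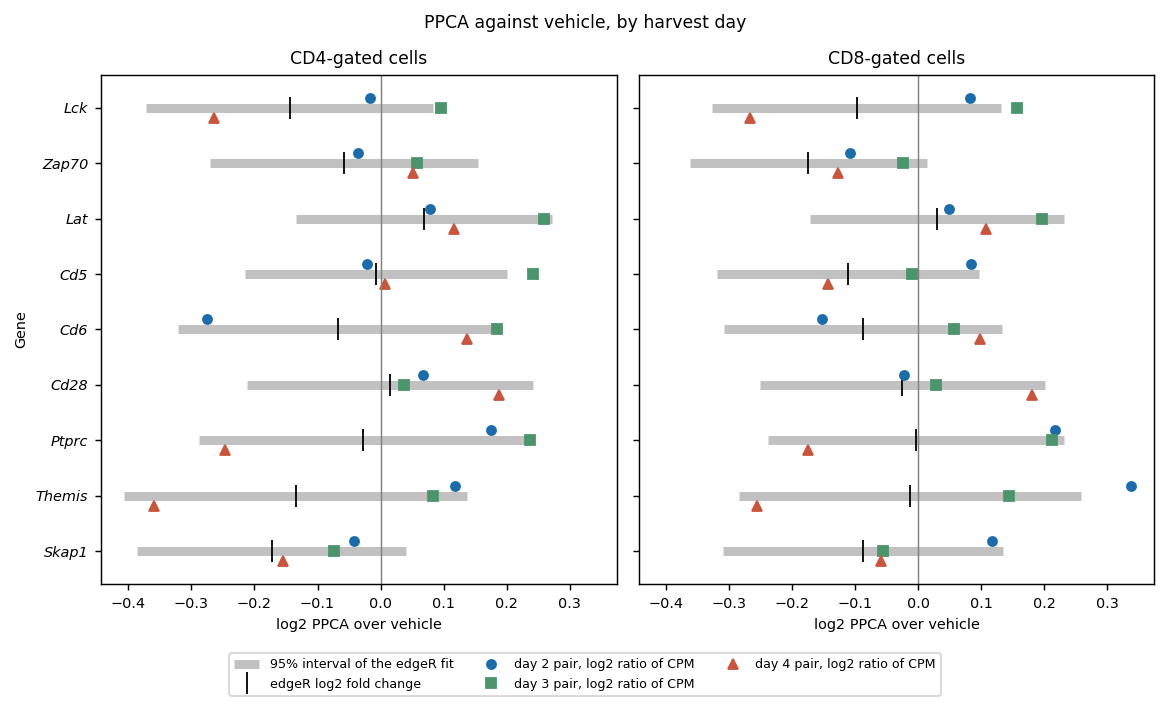
Log2 ratios of PPCA to vehicle for the 9 genes by harvest day (points, ratios of CPM) with the fitted log2 fold change (black tick) and its 95% interval (grey bar) from edgeR, in CD4-gated and CD8-gated cells. All 18 grey bars cross 0, and the day 4 points of Lck, Ptprc and Themis lie on the vehicle side of 0.

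The active and onset libraries, 1 each, allow no test. Among genes reaching 50 CPM in 1 of these libraries, 0.829% of 2773 in CD4-gated and 1.55% of 2769 in CD8-gated cells differed 2-fold or more, and none of the 9 members did. In CD4-gated cells Cd6 was higher in the active library, at 168 CPM (exact Poisson 95% interval 163 to 174) against 124 CPM (120.1 to 128), a log2 ratio of 0.44. Themis was lower there, at 147 CPM (142 to 153) against 183 CPM (178 to 189). In CD8-gated cells Cd28 was lower in the active library, at 110.2 CPM (106 to 115) against 158 CPM (151 to 165), a log2 ratio of -0.52, and Themis and Lat were lower with log2 ratios of -0.37 and -0.34. The median log2 ratio over the genes counted here was itself below 0, at -0.06 in CD4-gated and -0.11 in CD8-gated cells. For Cd6 the CD8-gated levels, 149.6 and 146 CPM, had overlapping intervals. The intervals cover counting error only.

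Across libraries the members did not follow a single pattern. Over 16 sums (8 libraries in 2 gates, log2 CPM centred within each gate) Lck correlated with Ptprc at r = 0.95 and with Cd5 at r = 0.94, while Cd28 correlated with Zap70 at r = -0.66 and with Lat at r = 0.65. Gates of a library share its mice and handling, and the day 4 libraries stand apart. Over the 12 sums without day 4, Lck gave r = 0.82 with Ptprc and 0.92 with Cd5, and Cd28 gave r = 0.49 with Zap70 and 0.37 with Lat. Among 5269 genes averaging at least 20 CPM, the gene most like each member was Tmem208 for Lck (r = 0.98), Gmfb for Zap70 (0.96), C1d for Lat (0.97), Riox2 for Cd5 (0.96), Pitpnm1 for Cd6 (0.94), Tagap for Cd28 (0.97), Pglyrp2 for Ptprc (1.00), Atp6v0e for Themis (0.99) and Rragc for Skap1 (0.87). Without day 4 these values were 0.85 to 0.99. The median SD of log2 CPM over libraries was 0.23 for the members in CD4-gated cells and 0.24 in CD8-gated cells, beside 0.19 and 0.19 for all genes of at least 50 CPM.

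The authors' deposited table of cluster markers lists 8 of the 9 members, each at a log2 fold change of 0.25 or above, and Skap1 has no entry. For the cluster named CD4 Th17 the authors' deposited table gives Cd28 (1.01), Cd5 (0.54), Lat (0.40), Cd6 (0.36) and Zap70 (0.25), for a cluster with 1.33% of all genes listed. For CD4 Treg the authors' deposited table gives Cd5 (0.75), Cd28 (0.63), Cd6 (0.50) and Ptprc (0.33), with 1.76% of genes listed, and for CD4 Th0 it gives Cd5 (0.91), Cd6 (0.51) and Cd28 (0.28), with 0.554% listed. For CD8 TRM TEM the authors' deposited table gives Cd6 (0.67), Themis (0.50), Ptprc (0.44), Lck (0.30) and Lat (0.25), with 2.17% listed. No member is listed in the authors' deposited table for CD4 Naive, CD4 Th1 or CD8 TCM, where 0.167%, 0.254% and 0.273% of genes are. Its clusters were made from the same cells, so these entries describe the clusters and test nothing.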

How the data were processed

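Per the labels, the libraries were 10x Genomics single-cell 3′ version 2 libraries of frozen sorted cells that were processed together. The authors deposited matrices of raw UMI counts per gene and barcode; per the file headers these came from Cell Ranger 6.0.0, while the submitters' processing notes name Cell Ranger 6.1.2 and Seurat. For build and annotation, nothing is given in the sources used here. The authors deposited a table with a log2 fold change and a p-value per gene for 7 clusters.

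Barcodes with at least 500 genes and under 10% mitochondrial UMIs were kept (77486 of 80470), and T cells (77285) had at most 1 UMI over 6 B cell and myeloid genes. No doublet caller was run; the gates drop cells with both coreceptors, and the barcodes of highest UMI count, 0.8% per 1000 barcodes, were removed as an alternative. UMIs were summed per library and gate (11080143 to 27666899 in each sum) and tested with edgeR 4.0.16 (R 4.3.3; TMM, filterByExpr, quasi-likelihood, two-sided, Benjamini-Hochberg, threshold 0.05). The library was the block where cells of 1 library were compared, and harvest day was a factor for PPCA, since same-day libraries deviated together (r = 0.33 to 0.55 over genes). The 9 gate genes, the genes of a state score and Foxp3 were left out of the tests they defined. CPM were computed without TMM. DESeq2 1.42.0, limma-voom of limma 3.58.1, DESeq2 size factors, no low-count filter, thinning, stricter cells, another gate, left-out libraries and a split of libraries by Y-linked transcripts were alternatives. All 9 members passed the low-count filter. The tests were checked on simulated data. Named genes were the 9 members, in each comparison of gates or states the 4 highest and 4 lowest pathway genes past the threshold, under PPCA any pathway gene past it, and for each member the single gene most like it; some genes that these rules or lists hold are not reported here. The members, lists and tests were chosen with earlier results of these data known.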

Additional observations from a re-analysis of the deposited data

Results flagged for a closer look

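In 7 members the difference between resting and experienced cells itself differed between the gates, in an edgeR test of that difference in 1 fit over both gates with each library and gate as a block, which was chosen after seeing the data. Of all genes, 10.7% of 8467 passed that test (5.79% higher, 4.94% lower). The effect in CD8-gated minus that in CD4-gated cells, on the log2 scale, was 0.53 for Cd28, 0.47 for Cd5 and 0.46 for Zap70, and -0.53 for Themis, -0.37 for Cd6, -0.33 for Skap1 and -0.20 for Ptprc. Experienced CD4-gated cells numbered 46 to 234 and experienced CD8-gated cells 170 to 814 per library. None of the 7 passed with cells thinned to 2000 UMIs, 1 passed in the libraries with Y-linked transcripts (Cd5) and 3 in those without (Cd28, Cd6 and Themis). The genes called in all were 489, 424 and 410 in these settings, respectively.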

How the results depend on the processing

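For CD8 against CD4, the differences in Cd28, Cd5 and Themis kept their sign under all alternatives run, and passed under all but the fit with no replicate block for Themis (edgeR adjusted p = 0.16). Over single members and pathway genes, 1107 values under other settings kept their direction and their side of the threshold, 134 no longer passed, 14 newly passed and 70 changed sign. When 1 library was left out, 985 stayed, 67 no longer passed, 3 newly passed and 34 changed sign. The 2 residual degrees of freedom of the PPCA fit, its 3 libraries per arm and the few experienced and Foxp3-positive cells per library limit the precision. PPCA fits without a day pair or with the Y-linked factor had fewer degrees of freedom still. Total-count scaling, the settings by cell state and the split of cell states by Y-linked transcripts were chosen after seeing the data.

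Thinned to 2000 UMIs, the genes past the threshold were 3260 for CD8 against CD4, 3 and 7 for PPCA in CD4-gated and CD8-gated cells, 2 for treatment by gate, 1246 for Foxp3, 1764 for resting against experienced CD4-gated cells, 209 and 152 for early response in CD4-gated and CD8-gated cells, and 489 for the effect of the resting state by gate. The members past it were then 3 and 1 for early response and 0 for the effect by gate. Log2 values that changed sign with thinning were Zap70 (-0.051) and Cd6 (0.032) for CD8 against CD4, Ptprc (0.019) under PPCA in CD4-gated cells, and Lat (-0.010) and Themis (0.018) under PPCA in CD8-gated cells. For treatment by gate they were Lck (-0.0035), Cd6 (0.021) and Ptprc (-0.015), for early response Lat (0.040) in CD4-gated and Lck (-0.024), Zap70 (-0.022), Themis (0.0055) and Rhoh (0.0051) in CD8-gated cells, and for the effects by gate Lat (0.00025, resting) and Skap1 (-0.021, early response).

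With DESeq2, 28 and 41 genes passed under PPCA and 221 for early response in CD8-gated cells, and Zap70 (-0.0028, CD8 against CD4) and Lck (0.0040, Foxp3) changed sign, as they did with DESeq2 size factors (-0.0025 and 0.0013). With limma-voom, and likewise with the highest-UMI barcodes removed, 2 genes passed under PPCA in CD8-gated cells. With Y-linked transcripts as a further factor 78 and 69 genes passed under PPCA. Without the low-count filter the counts were 136 and 117 for PPCA, 54 for treatment by gate and 549 for early response in CD8-gated cells. The values that changed sign were then Zap70 (-0.0054, CD8 against CD4), Ptprc (0.0023, PPCA in CD8-gated cells), Ptprc (-0.049, Foxp3), Lck (0.043) and Ptprc (0.050) in resting CD4-gated cells, and Lck (-0.028, early response in CD8-gated cells).

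Without TMM, at total counts, 2 genes passed under PPCA in CD8-gated cells. Sign changes were Lck (-0.028) and Zap70 (-0.040) for CD8 against CD4, Zap70 (0.025), Cd5 (0.076), Cd6 (0.016) and Ptprc (0.056) under PPCA in CD4-gated cells, and Cd6 (0.0010), Cd28 (0.063), Ptprc (0.085), Themis (0.076) and Skap1 (0.00042) under PPCA in CD8-gated cells. Lck (0.19) and Skap1 (0.057) changed sign for Foxp3, Themis (-0.14) for resting CD4-gated and Skap1 (-0.19) for resting CD8-gated cells, and Lat (0.045) for the effect by gate.

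With no replicate block, 1963 genes and 2 members passed for CD8 against CD4, 1978 genes for Foxp3, 3 members for resting against experienced CD8-gated cells, 11 genes and 0 members for early response in CD4-gated cells and 5 genes and 0 members in CD8-gated cells. The values that changed sign were Cd28 (0.031), Ptprc (0.013) and Themis (0.015) under PPCA in CD8-gated cells, Lck for Foxp3 (0.0018) and Lck for early response in CD8-gated cells (-0.0032). All other values come from fits with the replicate block.

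For CD8 against CD4, resting cells alone gave 1237 genes, with Lck (-0.050), Zap70 (-0.0056) and Ctla4 (0.047) changed in sign, and experienced cells alone gave 1300 genes, with Zap70 (-0.49), Cd6 (0.13) and Skap1 (0.20) changed. Zap70 was at -0.064 with a gate of 2 coreceptor UMIs, where Cd5 was at 0.024 under PPCA in CD4-gated cells, and at -0.0038 with stricter cells. Libraries with Y-linked transcripts gave Lck (-0.0036) and Zap70 (-0.036), and those without gave Cd6 (0.042). Among the comparisons of states, libraries with Y-linked transcripts gave 58 genes and 2 members for early response in CD4-gated and 105 genes in CD8-gated cells, 424 genes and 1 member for the effect of the resting state by gate and 3 genes for that of early response, with Themis (-0.10, resting CD4-gated) and Skap1 (0.0061, early response in CD8-gated cells) changed in sign, and Lat (0.032) for the effect of the resting state by gate. Libraries without them gave 1985 genes for Foxp3, 376 genes for early response in CD4-gated cells, 1 member in CD8-gated cells, 410 genes and 3 members for the effect of the resting state by gate and 4 genes for that of early response. Ptprc (0.089, resting CD4-gated), Cd28 (0.081, resting CD8-gated), Lck (-0.020, early response in CD8-gated cells) and Lat (0.0070, effect of early response by gate) changed in sign there. Shares of cells with a UMI differed by 3.27 points for Zap70, 4.05 for Cd6 and 0.54 for Skap1 without thinning, and by -0.36 points for Lck and 0.0062 for Zap70 when thinned to 1000 UMIs.

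Leaving out 1 library gave 4981 to 5312 genes and 5 to 6 members for CD8 against CD4, 2810 to 3108 genes and 6 to 7 members for Foxp3, 2976 to 3209 genes and 6 members for resting against experienced CD4-gated cells, and 3181 to 3443 genes and 6 to 8 members for CD8-gated cells. Early response gave 344 (without the onset library) to 741 genes and 5 to 6 members in CD4-gated, and 231 to 340 genes and 2 to 3 members in CD8-gated cells, and the effect of the resting state by gate gave 714 to 813 genes and 5 to 7 members. PPCA gave 0 to 75 genes in CD4-gated and 0 to 277 in CD8-gated cells, the highest without the day 4 pair, with 0 members. Treatment by gate gave 0 genes, and the effect of early response by gate 0 to 3.

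Values near 0 that changed sign when a library was left out ranged, for CD8 against CD4, from -0.021 to 0.026 for Zap70, -0.047 to 0.011 for Cd6 and -0.0017 to 0.027 for Lck. Under PPCA in CD4-gated cells they ranged from -0.052 to 0.023 for Cd5, -0.15 to 0.061 for Cd6, -0.050 to 0.084 for Cd28 and -0.11 to 0.10 for Ptprc. Under PPCA in CD8-gated cells they ranged from -0.12 to 0.035 for Cd28, -0.0013 to 0.055 for Lat, -0.079 to 0.090 for Ptprc and -0.15 to 0.12 for Themis. The ranges for treatment by gate were -0.062 to 0.0022 for Cd28, -0.081 to 0.029 for Cd6 and -0.011 to 0.044 for Ptprc. The remaining ranges were -0.013 to 0.0023 for Lck with Foxp3, -0.063 to 0.0030 for Ptprc in resting CD4-gated cells, -0.0055 to 0.043 for Skap1 in resting CD8-gated cells, -0.0053 to 0.011 for Lck with early response in CD8-gated cells, and -0.039 to 0.069 (resting) and -0.024 to 0.015 (early response) for the effects of Lat by gate. The cause of these changes was not tested.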
